A study of Mus musculus with 4 samples.

Results

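The genes described here are the 10 that encode or drive MHC class II in mouse B cells, out of 55401 gene identifiers counted. They were picked by symbol, with earlier results of these data known. They are the classical chains H2-Aa, H2-Ab1 and H2-Eb1 and the H2-DM chains H2-DMa, H2-DMb1 and H2-DMb2. The others are the H2-O chains H2-Oa and H2-Ob, the invariant chain Cd74 and the transactivator Ciita. All 10 had counts in every library and all 10 passed the filter on low counts. RNA was taken from splenic B220+ B cells, sorted from C57BL/6J mice, with 2 libraries from NSD1B WT mice (Mb1-Cre+ NSD1+/+) and 2 from NSD1B KO mice (Mb1-Cre+ NSD1fl/fl). Both genotypes carried Mb1-Cre, in which the Cd79a promoter, active from the earliest B cell stages, drives the recombinase, and the genotypes differed in whether Nsd1 was floxed. NSD1 places methyl groups on histone H3 at lysine 36. For its experiments in general the paper states the age of the mice in weeks, both sexes and littermate controls. The labels of these libraries give neither age nor sex. They also leave unstated whether a genotype's libraries came from separate mice, so that every p-value below measures the spread between these libraries, which may be technical.

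MHC class II molecules are pairs of an alpha and a beta chain that carry peptides from endosomes to the cell surface, where CD4+ T cells read them. The invariant chain, the product of Cd74, holds the peptide groove closed during assembly and guides the complex to the endosome. There H2-DM removes the last fragment of the invariant chain and lets peptides bind, and H2-O, which is found mainly in B cells, binds H2-DM and holds it back. Most of these genes share a promoter module, the X and Y boxes, on which RFX, CREB and NF-Y assemble and to which CIITA is recruited as the coactivator.

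The X and Y boxes could be read directly in the promoters of the class II genes, and they are shown as the letters on which the factors described further on assemble. RefSeq promoter windows on GRCm38.p6, from 250 bases before to 50 bases after the start of the gene, were at hand for 7 of the 10 genes, and H2-Ab1, Cd74 and Ciita had no entry. The letters TGATTGG of the Y box were searched on both strands, as was the same motif preceded by AAC at a distance of 20 to 30 bases, where AAC belongs to the core of the X box. Both motifs were set after the sequences had been read. The window of 6 of the 7 genes held the pair. Of 32851 promoter windows in the mouse table, 1.05% held the pair and 7.82% held TGATTGG, shares that describe how common the letters are and test nothing, since the letters were picked from these promoters. In the stretches below, written 5′ to 3′ on the strand of the gene, capitals mark AAC and TGATTGG.
H2-Aa, chr17:34287859-34287914, minus strand: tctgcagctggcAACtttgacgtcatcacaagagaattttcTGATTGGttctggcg
H2-Eb1, chr17:34305766-34305820, plus strand: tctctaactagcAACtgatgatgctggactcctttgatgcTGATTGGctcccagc
H2-DMb1, chr17:34153087-34153142, plus strand: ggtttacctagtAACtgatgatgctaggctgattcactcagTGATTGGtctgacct
H2-DMb2, chr17:34145116-34145171, plus strand: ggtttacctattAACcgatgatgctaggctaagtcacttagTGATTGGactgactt
H2-Oa, chr17:34092293-34092348, plus strand: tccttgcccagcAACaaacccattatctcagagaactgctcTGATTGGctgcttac
H2-Ob, chr17:34238808-34238860, plus strand: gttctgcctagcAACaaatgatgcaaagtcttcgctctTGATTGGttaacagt
The distance between the marked letters was 26 bases in H2-Aa, H2-DMb1, H2-DMb2 and H2-Oa, 25 in H2-Eb1 and 23 in H2-Ob. The windows of H2-DMa held neither motif. A match describes the letters only, and binding was not measured.

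Counts on genes ranged from 6769118 to 7566834 per library. Nsd1, the targeted gene, was counted 497 and 480 times in NSD1B WT and 284 and 280 times in NSD1B KO (Nsd1 log2 fold change -0.74, standard error 0.11, adjusted p = 8.08e-08 in the quasi-likelihood test of edgeR). The floxed allele flanks only some of the exons, so counts over the whole gene do not measure the deletion itself. For the knockout the paper reports less NSD1 by Q-PCR and less of the histone mark by Western blot. A gene was called when the adjusted p from this test was below 0.05 and the fold change above 1.2. Differences between the genotypes were wide over the whole transcriptome: 78.2% of the 11657 tested genes were called, 41.1% as lower and 37.1% as higher in NSD1B KO, and the median log2 fold change of all tested genes was -0.10. The genotypes did not overlap in 88.1% of the tested genes, with both NSD1B KO libraries below both NSD1B WT libraries in 46.2%. Each count of class II genes below is to be read against these shares. Bulk RNA does not separate fewer cells of a type from less RNA in each cell.

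Of the 10 genes, 8 fell in NSD1B KO, 0 rose and 2 were not called, and the median of their log2 fold changes was -0.56. Together the 10 genes took 5.64% and 5.58% of all counts in the NSD1B WT libraries and 3.88% and 4.02% in the NSD1B KO libraries. The 8 that fell were the 3 classical chains, the 3 H2-DM chains, H2-Oa and Cd74, and in each of them both NSD1B KO libraries lay below both NSD1B WT libraries. H2-Ob and Ciita were the exceptions. The count of 8 became 3 when the dependence of the ratios on exon length and GC content, taken up further on, was removed. Most of the declines were of moderate size: apart from H2-Oa, the called genes lay between the 33.9th and the 42.4th percentile of all tested genes ranked from the largest decrease.

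**Figure D1:**
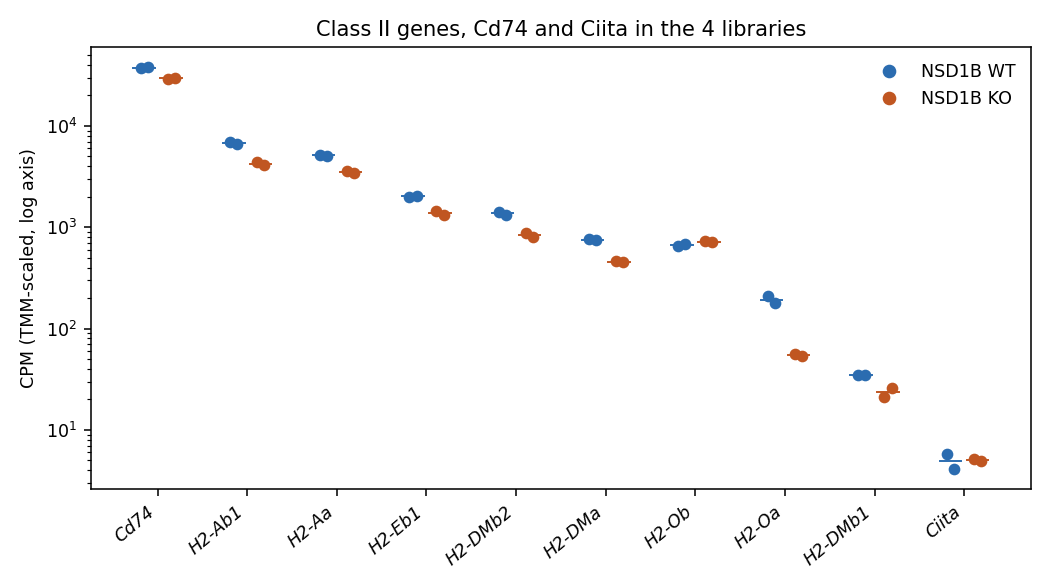
CPM scaled by the TMM method (log axis) of the 10 genes in each library, with 1 point for a library and a line for the mean of the 2 libraries of a genotype. Both NSD1B KO points lie below both NSD1B WT points in 8 genes, above them in H2-Ob, and among them in Ciita.

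The classical chains form I-A (H2-Aa with H2-Ab1) and provide the beta chain of I-E (H2-Eb1). H2-Ab1 (ENSMUSG00000073421.6), the beta chain of I-A, lies on the plus strand of chromosome 17 from 34257689 to 34269419 (mm10). It measured 7000 and 6605 CPM in NSD1B WT and 4369 and 4102 CPM in NSD1B KO, where CPM are counts scaled by TMM to a common library size. The NSD1B KO level was 62.3% of the NSD1B WT level (log2 fold change -0.68, standard error 0.08, adjusted p = 2.97e-11 by edgeR). Its partner H2-Aa (ENSMUSG00000036594.15), on the minus strand from 34282744 to 34287823, went from 5206 and 5081 CPM to 3618 and 3397 CPM. On the log2 scale H2-Aa differed by -0.55 with a standard error of 0.08 (adjusted p = 6.08e-09 by edgeR). In both chains of I-A the libraries of a genotype differed by at most 6.3% of their mean, and the decrease was several times that spread.

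H2-Eb1 (ENSMUSG00000060586.11), on the plus strand of chromosome 17 from 34305867 to 34316674, had 2005 and 2025 CPM in NSD1B WT and 1433 and 1312 CPM in NSD1B KO. On the log2 scale the difference was -0.55 with a standard error of 0.08 (adjusted p = 6.35e-09 by edgeR), the same to 2 decimals as that of H2-Aa. The alpha chain of I-E, H2-Ea, is a pseudogene in C57BL/6 mice, and it was counted 1 time in 1 NSD1B WT library and 0 times in the other libraries. The less studied beta chain gene H2-Eb2, next to H2-Eb1, moved the other way at a far lower level, from 6.02 and 5.2 CPM to 29.3 and 26 CPM (log2 fold change 2.30, standard error 0.21, adjusted p = 1.15e-13 by edgeR). The genotypes did not overlap in either gene.

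H2-DM, the peptide exchange factor, fell in all of its chains. With the dependence on exon length and GC content removed, H2-DMa (-0.19) and H2-DMb1 (-0.15) were no longer called, as taken up further on. H2-DMa (ENSMUSG00000037649.10), the alpha chain, on the plus strand of chromosome 17 from 34119541 to 34139101, had 758 and 743 CPM in NSD1B WT and 462 and 451 CPM in NSD1B KO. The difference was -0.72 on the log2 scale with a standard error of 0.08 (adjusted p = 7.98e-12 by edgeR). H2-DMa shares 360 bp, or 10.4% of its exon length, with Brd2 on the opposite strand. The strand setting of the counting is not given in the sources used here, so reads of this stretch may belong to either gene, and Brd2 was counted far less, at 273 and 373 counts in NSD1B WT and 198 and 196 in NSD1B KO.

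The beta chain has 2 gene copies side by side. H2-DMb2 (ENSMUSG00000037548.15), from 34143307 to 34151555, carried nearly all beta chain counts, with 1415 and 1325 CPM in NSD1B WT and 874 and 796 CPM in NSD1B KO (log2 fold change -0.71, standard error 0.08, adjusted p = 1.1e-11 by edgeR). H2-DMb1 (ENSMUSG00000079547.4), from 34153072 to 34160230, stood at 34.7 and 35 CPM against 21.3 and 25.7 CPM (log2 fold change -0.57, standard error 0.15, adjusted p = 0.000563 by edgeR). Per length of exon, the level of H2-DMb2 was 39.2 and 36.4 times that of H2-DMb1 in the NSD1B WT libraries and 39.5 and 29.8 times in the NSD1B KO libraries, and the genotypes overlapped. The longest transcripts of the 2 genes were 87.3% identical over 1157 aligned bases, and 5.74% of the 150-base windows of H2-DMb1 stood unaltered in H2-DMb2. The split of reads between the 2 copies is therefore uncertain, and the sum is the safer value. The ratio of H2-DMa to the summed beta chains, per length of exon, was 0.265 and 0.276 in NSD1B WT and 0.261 and 0.278 in NSD1B KO, and the genotypes overlapped.

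The chains of H2-O, the partner that restrains H2-DM, parted. H2-Oa (ENSMUSG00000024334.9), the alpha chain, on the plus strand of chromosome 17 from 34092340 to 34095234, was counted 1494 and 1297 times in NSD1B WT and 407 and 359 times in NSD1B KO. This was 209 and 177 CPM against 56.6 and 53.4 CPM, and the difference of -1.81 on the log2 scale, with a standard error of 0.10 (adjusted p = 6.71e-22 by edgeR), was the largest decrease of the 10 genes. The level in NSD1B KO was 28.5% of that in NSD1B WT, with a 95% interval of 24.8% to 32.6%. H2-Oa shares 321 bp, or 22.8% of its exon length, with the antisense RNA BC051537, which also fell, from 696 and 648 counts to 244 and 179, and without strand the 2 cannot be told apart in that stretch.

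H2-Ob (ENSMUSG00000041538.16), the beta chain, on the plus strand from 34238903 to 34254414, had 651 and 682 CPM in NSD1B WT and 727 and 711 CPM in NSD1B KO. The NSD1B KO libraries were the higher ones, but the gene was not called (log2 fold change 0.11, 95% interval -0.04 to 0.26, adjusted p = 0.182 by edgeR). Once the length and GC trend was taken out, H2-Ob stood at 0.25 (adjusted p = 0.00566 by edgeR), just under the fold limit for a call. Per length of exon, the ratio of H2-Oa to H2-Ob was 1.23 and 0.995 in the NSD1B WT libraries and 0.298 and 0.287 in the NSD1B KO libraries. The mean ratio was 3.8-fold lower in NSD1B KO, a value on which the scaling of the libraries has no bearing. The length and GC trend does bear on it, since with the trend taken out H2-Oa fell less (-1.37). The level of the ratio in a genotype also depends on the exon length used. With the longest transcript it was 0.64 and 0.519 in NSD1B WT and 0.155 and 0.15 in NSD1B KO. For ratios, an exact permutation test of 2 against 2 cannot go below p = 0.333, so no ratio is given a test.

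**Figure D2:**
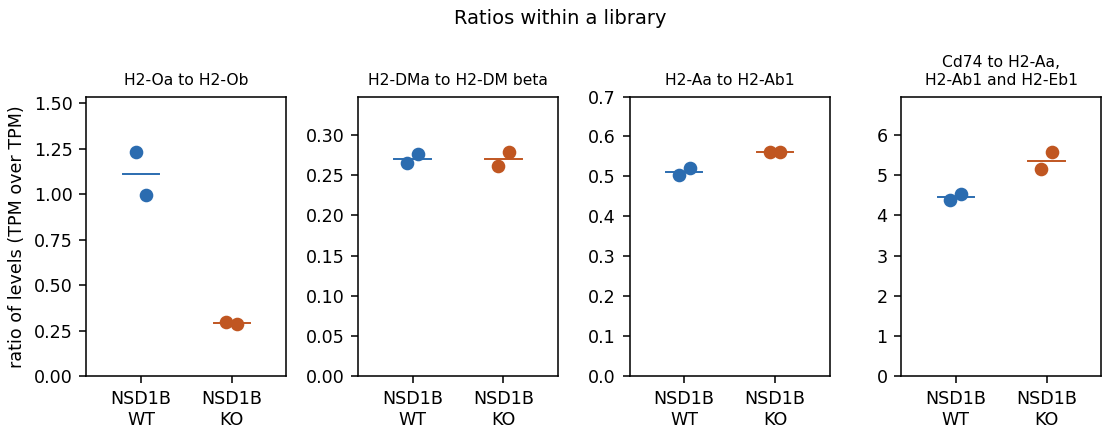
Ratios of levels within a library, as TPM (counts per length of exon, scaled to a common total) over TPM, with 1 point for a library and a line for the mean of a genotype, and with an axis from 0 for each of the 4 panels. H2-Oa to H2-Ob is 1.23 and 0.995 in NSD1B WT and 0.298 and 0.287 in NSD1B KO, while H2-DMa to the H2-DM beta chains lies between 0.261 and 0.278 in all 4 libraries.

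The ratio of H2-Ob to the H2-DM beta chains was 0.146 and 0.163 in NSD1B WT and higher in NSD1B KO, at 0.264 and 0.281. The ratio of H2-Oa to H2-DMa was lower in NSD1B KO, at 0.3 and 0.29 against 0.676 and 0.585. For alpha and beta chains summed, the ratio of H2-O to H2-DM was 0.257 and 0.254 in NSD1B WT and 0.271 and 0.283 in NSD1B KO. The direction of this small difference is uncertain, since taking out the length and GC trend moved H2-Ob less than the other chains. These are ratios of RNA, and the chains of H2-O act as a pair.

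Cd74 (ENSMUSG00000024610.15), on the plus strand of chromosome 18 from 60803848 to 60812652, was the most highly counted gene of all tested genes. It took 3.87% of the counts in each NSD1B WT library and 2.78% and 2.94% in the NSD1B KO libraries. In CPM this was 37627 and 37737 against 29251 and 29556, or 78% of the NSD1B WT level (log2 fold change -0.36, standard error 0.08, adjusted p = 4.78e-05 by edgeR). The libraries of a genotype differed by at most 1.04% of their mean, so the decrease was larger than the spread. With the length and GC trend taken out, however, Cd74 stood at 0.10 and was not called, as taken up further on. The ratio of Cd74 to the 3 classical chains per length of exon was 4.37 and 4.54 in NSD1B WT and higher in NSD1B KO, at 5.14 and 5.56. Among the classical chains, the ratio of H2-Aa to H2-Ab1 was 0.503 and 0.52 against 0.56 and 0.56. The direction of this ratio is uncertain, since with the length and GC trend taken out H2-Aa fell more (-0.37) than H2-Ab1 (-0.15).

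Ciita (ENSMUSG00000022504.10), on the plus strand of chromosome 16 from 10480059 to 10528418, encodes the coactivator on which class II transcription depends. It was counted only 41 and 30 times in NSD1B WT and 37 and 33 times in NSD1B KO, or 5.74 and 4.1 CPM against 5.14 and 4.91 CPM. The genotypes overlapped and no difference was detectable at this depth (log2 fold change 0.03, standard error 0.33, adjusted p = 0.933 by edgeR). The 95% interval ran from -0.64 to 0.70, so decreases as large as those of H2-Ab1, H2-DMa or H2-DMb2 lie just beyond its edge, and decreases as large as those of H2-Aa, H2-Eb1, H2-DMb1 or Cd74 lie inside it. Of its exon length, 329 bp are shared with Dexi on the opposite strand, which had 17 to 42 counts.

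Per length of exon, the order in NSD1B WT was Cd74 at 35715 ± 412 TPM (mean ± SD, n = 2), H2-Ab1 at 4217 ± 230, H2-Aa at 2155 ± 66.5, H2-Eb1 at 1649 ± 10.8 and H2-DMb2 at 1249 ± 75. Below these stood H2-DMa at 346 ± 9.69 TPM, H2-Oa at 219 ± 28.3, H2-Ob at 197 ± 3.7, H2-DMb1 at 33 ± 0.239 and Ciita at 0.823 ± 0.204. H2-Oa and H2-Ob were the neighbours in this order that did not differ beyond their spread. With the length of the longest transcript H2-Ob was instead above H2-Oa, at 333 ± 7.63 against 192 ± 24.1 TPM in NSD1B WT, and above H2-DMa in NSD1B KO, at 332 against 281 TPM. In NSD1B KO, H2-DMa at 191 ± 0.659 TPM and H2-Ob at 193 ± 0.445 stood beside each other, and H2-Oa came next at 56.5 ± 1.56. The upper 5 places were held by the same genes in the same order in both genotypes.

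Of the alternatives run, 1 moved the decreases the most. Over all tested genes the ratio of NSD1B KO to NSD1B WT depended on exon length and GC content, and when this trend was removed the median of all tested genes moved from -0.10 to 0.18 and 3 of the 10 genes were still called lower, namely H2-Oa at -1.37, H2-Aa at -0.37 and H2-DMb2 at -0.30 on the log2 scale. Cd74 changed sign, to 0.10 (adjusted p = 0.33 by edgeR). When the median was then held at its former value, a setting added after these values had been seen, 7 genes were called lower and Cd74 stood at -0.18 (adjusted p = 0.0897 by edgeR). H2-Oa was called lower in each of these fits. With each library left out in turn, 8 of the 10 genes stayed lower.

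**Figure D3:**
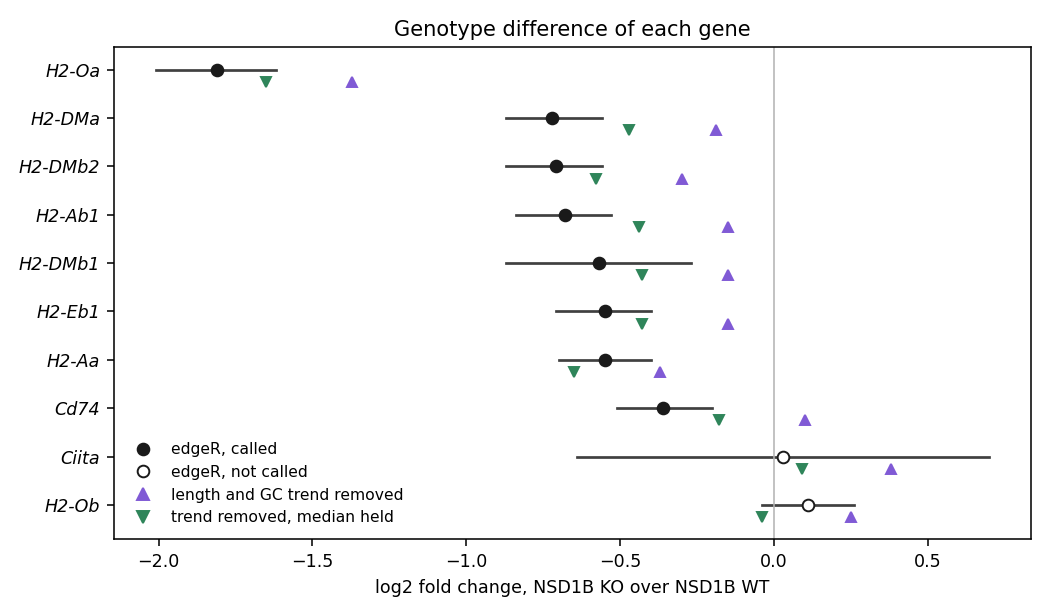
Log2 fold change of NSD1B KO over NSD1B WT for the 10 genes from edgeR (circles, filled where called, with 95% intervals) and after the dependence on exon length and GC content was removed, without (upward triangles) and with (downward triangles) the median of all genes held. H2-Oa is lowest in each fit, and Cd74 passes from -0.36 to 0.10 and to -0.18.

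The factors that bind the X and Y boxes moved in both directions. Of 7 such genes 6 could be tested, 2 rose, 3 fell and 1 was not called, beside 78.2% called of all tested genes. Within the RFX complex, which binds the X box, Rfx5 went from 29 and 20.2 CPM to 12.8 and 11 CPM (log2 fold change -1.04, adjusted p = 4.68e-06 by edgeR) and Rfxank from 53.2 and 43.2 to 22.1 and 18.3 CPM (log2 fold change -1.25, adjusted p = 1.22e-10 by edgeR). The remaining subunit Rfxap went the other way, from 6.86 and 6.57 to 42.2 and 37.2 CPM (log2 fold change 2.56, adjusted p = 3.06e-17 by edgeR). The genotypes did not overlap in any of the 3 subunits.

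NF-Y, which binds the Y box shown in capitals above, was split in the same manner. Nfyb rose from 43.4 and 49.1 to 138 and 135 CPM (log2 fold change 1.56, adjusted p = 4.32e-19 by edgeR), and Nfyc fell from 35.1 and 38.3 to 8.76 and 8.03 CPM (log2 fold change -2.13, adjusted p = 7.15e-15 by edgeR). The A subunit, Nfya, is listed with 0 counts in all 4 libraries. Creb1, whose product binds next to RFX, was not called, at 67.9 and 73.9 CPM against 64.1 and 62.3 CPM (log2 fold change -0.17, adjusted p = 0.139 by edgeR). With the length and GC trend alone taken out it was at -0.23 and not called. With the median then held Creb1 was called lower (-0.51, adjusted p = 3.43e-05 by edgeR).

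Among 8 genes for factors known to act on Ciita or on class II expression, 5 rose, 2 fell and 1 was not called. Of all tested genes 78.2% were called. Pax5, which keeps B cells in their lineage, was counted 279 and 342 times in NSD1B WT and 30 and 31 times in NSD1B KO (log2 fold change -3.29, standard error 0.20, adjusted p = 6.31e-20 by edgeR). Ebf1, a second factor of B cell identity, rose from 46 and 50.9 to 80.2 and 82.9 CPM, and Spi1, the gene of PU.1, from 18.2 and 16.4 to 48.2 and 44.6 CPM. Prdm1, whose product silences Ciita in plasma cells, rose from 17 and 21 to 59 and 52 counts (log2 fold change 1.59, standard error 0.34, adjusted p = 3.67e-05 by edgeR). Irf1, a factor induced by interferon, fell from 65.2 and 65.1 to 40.4 and 49.4 CPM. With the length and GC trend removed, Irf1 was no longer called (-0.09). With the median then held Irf1 was called lower (-0.37, adjusted p = 0.00376 by edgeR). Irf4 rose by a log2 fold change of 0.32, a call that leaving out NSD1B WT replicate 1 or NSD1B KO replicate 1 ended (adjusted p = 0.131 and 0.0811 by edgeR), and so did library size alone, DESeq2's Wald test, limma-voom, and the trend taken out with the median held. Irf8 was not called (0.12), but was called higher with the trend taken out (0.45, adjusted p = 0.034 by edgeR). With the median then held Irf8 was at 0.17 and not called.

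Of 7 genes that prepare the peptide and the invariant chain, 4 were called lower, 1 higher and 2 not called, beside 78.2% called of all tested genes. Ctss, the protease that cuts the invariant chain in B cells, had 2044 and 2111 CPM in NSD1B WT and 2135 and 2021 CPM in NSD1B KO, and its log2 fold change was 0.00 with a 95% interval of -0.15 to 0.15. Ifi30, the gene of the thiol reductase GILT, fell from 294 and 268 to 82 and 82.8 CPM (log2 fold change -1.77, adjusted p = 3.54e-23 by edgeR). The endosomal proteases Ctsb, Lgmn and Ctsd fell by 0.78, 0.67 and 2.32 on the log2 scale, whereas Ctsl rose from 13 and 10 to 74 and 87 counts. Lgmn was no longer called once the length and GC trend was taken out (-0.26). With the median then held Lgmn was called lower (-0.54, adjusted p = 1.13e-05 by edgeR). Sppl2a, whose product clears the last membrane stub of the invariant chain, was not called, at 48.8 and 48.7 CPM against 54.5 and 59.6 CPM. Its log2 fold change was 0.23 with all libraries and 0.29 without NSD1B KO replicate 1.

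At the cell surface, the ubiquitin ligase MARCH1 removes class II and CD83 opposes it. Both of their genes fell, Marchf1 from 123 and 123 to 89.8 and 83.4 CPM (log2 fold change -0.51, adjusted p = 2.97e-06 by edgeR) and Cd83 from 449 and 430 to 329 and 301 CPM (log2 fold change -0.48, adjusted p = 4.15e-07 by edgeR). Marchf8, a close relative of Marchf1, had 0 counts in both NSD1B WT libraries and 58 and 52 in NSD1B KO, at least 38-fold higher when set against 3 counts over the 2 NSD1B WT libraries. With the length and GC trend removed, Cd83 was no longer called (-0.06). With the median then held Cd83 was called lower (-0.34, adjusted p = 0.000367 by edgeR). In all, 10 of the 27 pathway genes rose, 11 fell, 4 were not called and 2 were not tested, and the median log2 fold change of those tested was 0.00. The share called was 21 of 25, beside 78.2% of all tested genes.

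**Figure D4:**
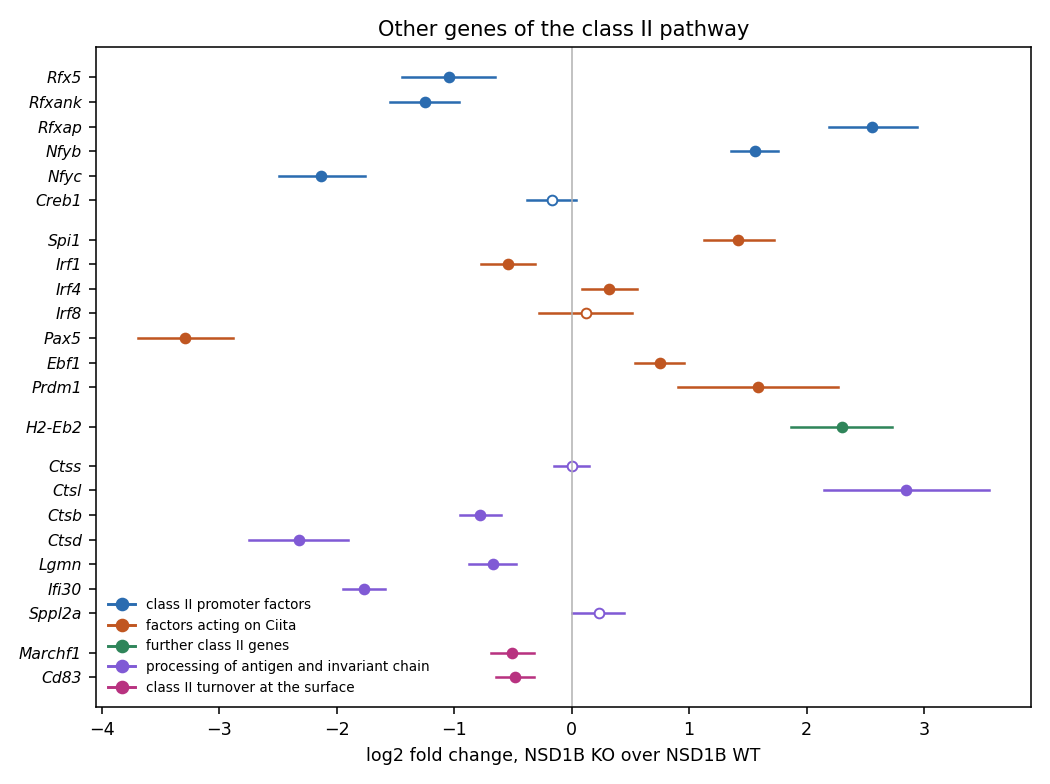
Log2 fold change of NSD1B KO over NSD1B WT from edgeR for tested pathway genes outside the 10, with 95% intervals, coloured by group and filled where called. Rfxap and Nfyb lie above 0 while Rfx5, Rfxank and Nfyc lie below it. Marchf8, with 0 counts in NSD1B WT, and 1 gene not reported singly are left out of the plot.

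The 8 H2 genes stand in a single stretch of chromosome 17, from H2-Oa to H2-Eb1, together with genes of the class I pathway. Of the 12 other annotated genes that start inside this stretch, 9 were tested, 5 fell and 2 rose, a share called near the 78.2% of all tested genes. All 5 protein-coding ones were tested, and 4 of them fell. With the length and GC trend taken out, 2 of the 9 tested genes were called lower in place of 5, and again 5 with the median then held. Tap1, a subunit of the peptide transporter of class I loading, went from 53.6 and 50.2 to 21 and 24.2 CPM (log2 fold change -1.20, adjusted p = 5.59e-11 by edgeR). Its partner Tap2 had a log2 fold change of -0.82, the bromodomain gene Brd2 of -0.66 and the immunoproteasome gene Psmb9 of -0.50 (adjusted p = 0.000315, 4.4e-05 and 1.4e-06 by edgeR). Psmb8, an immunoproteasome gene between Tap1 and Tap2, was not called, at 620 and 585 CPM against 687 and 631 CPM. Psmb8 and Tap2 overlap the antisense RNA Gm20496, so part of their reads is uncertain without strand.

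**Figure D5:**
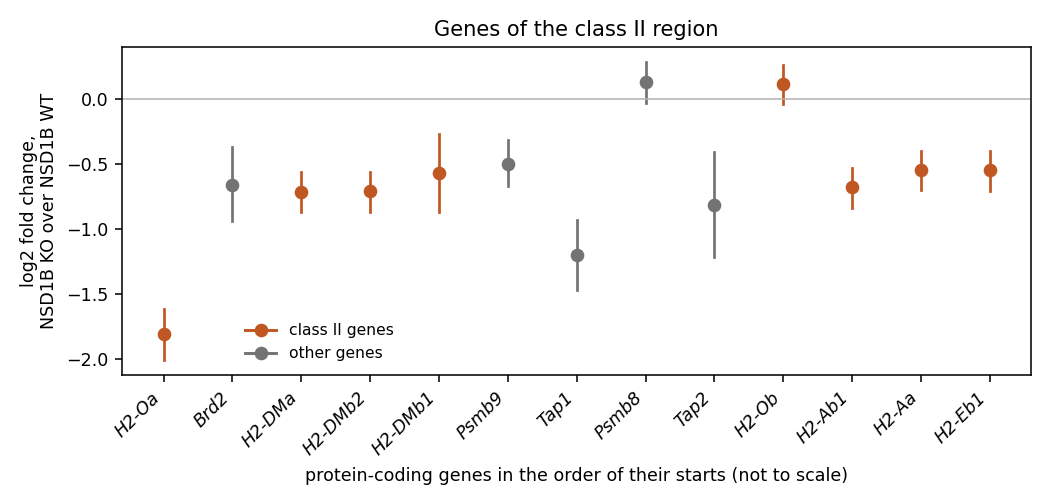
Log2 fold change of NSD1B KO over NSD1B WT from edgeR, with 95% intervals, for the protein-coding genes from H2-Oa to H2-Eb1 in the order of their starts, not to scale. H2-Oa is lowest at -1.81 and Tap1 next at -1.20, and H2-Ob and Psmb8, neither of them called, are the genes above 0, although H2-Ob was at -0.04 once the length and GC trend was taken out and the median held.

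Other cells of the spleen also carry class II, and markers of such cells were present. The paper's methods state that the sort was checked and that RNA came from cells of high purity alone. Of 9 dendritic cell markers, 6 were at 0 in all 4 libraries, among them Itgax, Flt3, Zbtb46 and Siglech, and the summed level of the list was 87.5 to 94.7 CPM in NSD1B WT and 129 to 136 CPM in NSD1B KO. Most of this sum was Bst2, which other cells also express. Of the 3 tested markers 2 rose, Bst2 and Xcr1, the latter from 0 and 0 to 36 and 26 counts. Of 11 macrophage and monocyte markers 8 were called higher and 2 lower, beside 78.2% called of all tested genes. They summed to 4994 and 5070 CPM in NSD1B WT and 6634 and 6253 CPM in NSD1B KO, of which Lyz2 made up most. Csf1r, a defining receptor of these cells, rose from 3.22 and 3.69 to 52.1 and 49.8 CPM. The 2 that fell were Itgam and C1qa, with log2 fold changes of -0.80 and -0.78. The 5 erythroid markers, which belong to cells without class II, summed to 39.6 and 35.6 CPM in NSD1B WT and 1944 and 1690 CPM in NSD1B KO. T and NK cell markers summed to 57 to 65.2 CPM over all libraries, with Cd4, Cd8a and Ncr1 at 0, and of the 4 tested Cd3d and Cd3g rose while Trac and Lck fell. Plasma cell markers summed to 247 to 271 CPM in NSD1B WT and 190 to 204 CPM in NSD1B KO, with Sdc1 and Tnfrsf17 at 0.

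Of the 8 genes of B cell identity, 5 fell, 1 rose and 2 were not called, beside 78.2% called of all tested genes. They summed to 17892 and 17726 CPM in NSD1B WT and 16314 and 15220 CPM in NSD1B KO. Their log2 fold changes ran from -1.33 to 0.66, with a median of -0.36. Ms4a1, the gene of CD20, had a log2 fold change of -0.57, in the range of the class II genes, while Ighd, the gene of IgD, rose by 0.66 (adjusted p = 2.67e-09 and 1.09e-10 by edgeR). The part that a shift in the cells of the sort plays in the class II values was not tested.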

How the data were processed

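The authors deposited raw whole-number counts per gene for 4 libraries, from reads mapped to mm10 with Bowtie2. The program that counted reads, its use of strand and its annotation were not given in the sources used here, and the FPKM from Cufflinks named in the Methods were not used here. Lines that name no gene (44.3% to 44.6% of counted reads on no feature, 2.21% to 2.41% ambiguous and 11.2% to 13.2% not unique) stayed out of library sizes. Of 55401 identifiers, 99.5% matched GENCODE M21 after the version number was dropped, which gave positions and exon lengths.

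Genes were filtered with filterByExpr (minimum count 10, minimum total 15), scaled by TMM and compared by the quasi-likelihood test of edgeR 4.0.16 in R 4.3.3, NSD1B KO over NSD1B WT, with Benjamini-Hochberg adjustment over 11657 genes. The call limits follow the Methods, applied to adjusted p. TPM were computed from the deposited counts and the union of exons. Transcripts were aligned with Biopython 1.88. Alternatives used DESeq2 1.42.0, limma 3.58.1, other scalings, filters and thresholds, libraries left out, the replicate number as a block, and a loess trend (span 0.5) with exon length and GC content, whose form with the median held was added after seeing the data. The procedure was tested on simulated data.

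The genes, lists and tests were chosen with earlier results of these data known. Genes named singly are the 10 genes, those of the lists, protein-coding genes of the class II region, and the 5 genes nearest in pattern to Ciita and to Cd74. Of the lists, 2 genes count in the totals and are not reported singly here. BC051537, Dexi and Gm20496 were named later for their overlap. The mean chi-square between libraries of a genotype was 2.95 and 3.77, where counting error alone gives about 1, so no library was a copy of another.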

Additional observations from a re-analysis of the deposited data

How the results depend on the processing

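All 8 decreases kept their direction and call under DESeq2 size factors, library size alone, upper quartile scaling, DESeq2's Wald test, limma-voom, both filters and each library left out. Removing the trend with exon length and GC content gave log2 fold changes of -0.15 for H2-Ab1, -0.15 for H2-Eb1, -0.19 for H2-DMa, -0.15 for H2-DMb1 and 0.10 for Cd74, and 3 genes called lower. The same trend removed with the replicate block gave -0.16, -0.15, -0.19, -0.15 and 0.10, and again 3. With the median then held, a setting chosen after seeing the data, Cd74 was at -0.18. Since this trend moved the median of all genes from -0.10 to 0.18, part of these shifts is shared by all genes, and the share of higher among called genes was 55.7% with the trend removed and 47.4% without. Without any single library the log2 fold change of H2-Oa stayed between -1.90 and -1.66, that of Cd74 between -0.36 and -0.33 and that of Ciita between -0.17 and 0.32. The direction of Ciita and H2-Ob, neither called in any of the fits run, was not stable, since Ciita was at -0.05 with library size alone and H2-Ob at 0.25 with the trend removed and at -0.04 with the median then held.

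With the stricter thresholds named below, 6 genes were called lower. The replicate number as a block left 8 genes lower and changed no other call among the 10 genes. The difference between replicates 1 and 2 correlated at 0.0709 between the genotypes over the tested genes and at 0.104 over genes above 10 CPM. With only 2 pairs and no label that ties them, the numbers were not taken to pair the libraries, and calls over all genes were 4254 higher and 4706 lower with the block, against 4324 and 4795. Among the other genes of the class II region, 1 was called higher with library size alone, with 1 CPM required in all 4 libraries and with the stricter thresholds (adjusted p below 1e-05 and absolute log2 fold change above 0.5), and 2 were called lower with those thresholds, with the trend removed, and with the trend removed and the replicate block. With 1 CPM in all 4 libraries, 2855 genes were called higher and 2991 lower over all genes, as fewer genes were tested.

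With the length of the longest transcript, levels moved to 7486 and 4312 TPM for H2-Ab1 in NSD1B WT and NSD1B KO, 1610 TPM for H2-Eb1 in NSD1B WT, 499 and 281 for H2-DMa, 50.6 for H2-Oa in NSD1B KO, 333 and 332 for H2-Ob, and 1.09 and 1.03 for Ciita. With 30 to 41 counts a library, Ciita is limited by depth.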

Other observations

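Over the 4 libraries, the gene whose pattern of log2 CPM lay nearest to that of Cd74 was Dnajc5, a chaperone of vesicle release, and the next was H2-D1, a classical MHC class I heavy chain. H2-D1 had 1226 and 1229 CPM in NSD1B WT and 941 and 945 CPM in NSD1B KO (log2 fold change -0.38, standard error 0.07, adjusted p = 1.05e-05 by edgeR), beside -0.36 for Cd74. The distance of H2-D1 to Cd74, as the root of the summed squared differences of centred log2 CPM over 4 libraries, was 0.023. Tor1b, Gm15133 and Eef2 followed. Nearest to Ciita were Aup1, Rpl19-ps11, Gm14586, Ciao2b and Slc38a10, none of them called. With 4 libraries and most genes differing between the genotypes, such nearness is a description and holds many genes.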
